A study of Danio rerio with 12 samples.

Results

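The 7 genes described here act in vertebrate photoreceptors and were followed through RNA of whole zebrafish embryos that lack normal snapc3, lsm8 or tnpo3. They are the transcription factor genes nr2e3 and crx, the transducin genes gnat1 and gnat2, and the shut-off genes rcvrna, grk7a and arr3a. Members were found by gene symbol, and 6 of 7 had a row among 14820 genes with a row in any table. grk7a, which encodes a cone opsin kinase, had no row in the tables used here, and nothing can be said of it. The study came from a screen for T cell development and sequenced 12 libraries in 4 groups of 3, namely wild-type embryos (wt) and snapc3-/-, lsm8-/- and tnpo3-/- embryos. Per the labels, control replicates 1, 2 and 3 carry mixed backgrounds A, C and B, while all snapc3 mutants carry A, all lsm8 mutants B and all tnpo3 mutants C, so that each mutant shares its background with 1 control. Background entered no fit, because libraries in the splicing tables cannot be assigned to replicate numbers and deposited expression has no library values, and its part in the results was not tested. Embryo age, pooling of embryos and the nature of the alleles are in none of the labels. The p-values therefore measure only the spread between these libraries, and all 3 mutants were set against the same 3 control libraries.

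In photoreceptors, light changes an opsin, the opsin activates transducin, transducin activates a phosphodiesterase, and the fall in cyclic GMP closes ion channels. Rods use the transducin alpha subunit Gnat1 and cones use Gnat2. Opsin kinases and arrestins end the signal, and recoverin restrains the kinase while calcium is high. Crx is a homeobox factor that drives photoreceptor genes, and Nr2e3 is a nuclear receptor that, in mouse, holds back cone genes in rods. Larval zebrafish vision relies largely on cones.

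The mutated genes were read first. For tnpo3, CPM (junction reads scaled to library size) were 27.8, 25.0 and 26.6 in controls and 8.63, 5.19 and 7.49 in tnpo3 mutants, a log2 change of -1.93 (SE 0.198, limma adjusted p = 0.00269). The authors' deposited table listed snapc3 lower by a log2 fold change of -1.39 in snapc3 mutants. The authors' deposited table for lsm8 mutants listed lsm8 higher by 2.87, and that for snapc3 mutants listed lsm8 higher by 2.19, so the lsm8 transcript does not check the lsm8 label. Deposited expression tables hold 1 log2 fold change per gene and are limited to genes whose adjusted p is below 0.05 and whose log2 change is at least 1 in size. Skipped-exon tables hold reads across exon junctions in each library, and the reads summed per gene and scaled to CPM give a level. Totals of these reads ran from 12772103 to 22999590 per library in the 3 tables.

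The members that were listed were all listed lower. The authors' deposited table for snapc3 mutants held 4 of the 7, nr2e3, crx, rcvrna and gnat1. The authors' deposited table for lsm8 mutants held 2, rcvrna and arr3a, and the authors' deposited table for tnpo3 held 1, gnat1. None of the 7 was listed higher. As background, 0.96%, 1.26% and 0.228% of 33737 genes were listed lower for snapc3, lsm8 and tnpo3, where 33737 is the number of tested genes inferred from the deposited p-values. The members and the gene lists used below were chosen with earlier results of these data known, so these counts are not an independent test. Absence from a deposited table is not counted as no change. In bulk RNA, fewer photoreceptors and less RNA per photoreceptor cannot be told apart.

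**Figure D1:**
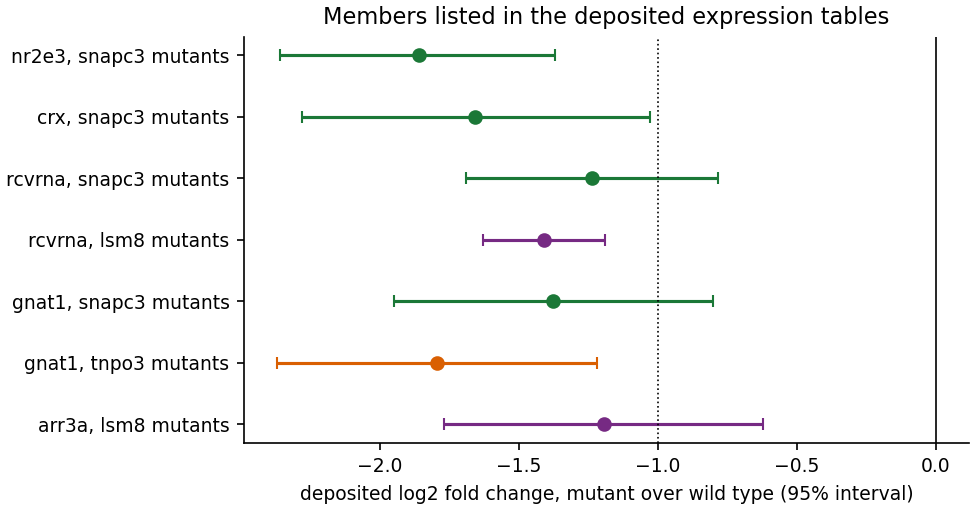
Deposited log2 fold changes (x axis, mutant over wild type, points) of the listed members with 95% intervals (bars) derived from the deposited statistics; the dotted line marks the deposited minimum of 1 in size. All 7 values lie between -1.86 and -1.19. Every interval stays below 0, but being listed lower already requires this, so it is no separate result.

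Both transcription factors were listed in snapc3 mutants. The authors' deposited table gave nr2e3 a log2 fold change of -1.86 (SE 0.198, 95% interval -2.36 to -1.37, limma adjusted p = 0.0178), which is 27.5% of the control level. Its group levels implied by the deposited average were 3.2 in controls and 1.34 in mutants on the log2 scale. The authors' deposited table gave crx -1.66 (SE 0.251, 95% interval -2.28 to -1.03, adjusted p = 0.0358), or 31.7% of control, with implied log2 levels of 2.89 and 1.23. The intervals overlap widely, and the difference between the genes was not tested. Among the 324 genes listed lower for snapc3 in the authors' deposited table, nr2e3 ranked 123 and crx 157 by fold, so neither was near the extreme. Neither gene was listed for lsm8 or tnpo3 mutants, and neither had junction reads from which a difference between mutants could be tested.

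Other genes of photoreceptor transcription were measured beside nr2e3 and crx. Of 16 such genes, 6 had enough junction reads in the snapc3 table. In all, 3 were called lower at a limma adjusted p below 0.05, 0 were called higher and 3 did not pass, against 3.17% of 10295 genes called lower. The median log2 change of the 6 was -0.76, against 0.00 over all genes. The homeobox gene otx2, which acts upstream of crx in mouse, had 7.85, 7.71 and 8.21 CPM in controls and 3.62, 1.73 and 2.67 in snapc3 mutants. The groups did not overlap, and the log2 change was -1.63 (SE 0.296, adjusted p = 0.0172). For six7, a homeobox gene needed for green cone opsins in zebrafish, levels were 16.4, 17.8 and 26.1 in controls and 4.72, 10.3 and 5.70 in snapc3 mutants. It was lower by a log2 change of -1.60 (SE 0.315, adjusted p = 0.0278). The nuclear receptor gene rorb fell from 28.2, 25.4 and 29.8 to 14.8, 14.7 and 13.4, a log2 change of -0.95 (SE 0.13, adjusted p = 0.0049). All 6 fits that left out a library kept the call of rorb. Library numbers here and below are positions in the deposited cells and not replicate numbers, so they do not give the background. The call of otx2 was lost without control 2 (adjusted p = 0.0562), control 3 (0.0521) or snapc3 mutant 3 (0.0559), and that of six7 without control 2 (0.0714), control 3 (0.0692), snapc3 mutant 1 (0.0861) or snapc3 mutant 3 (0.109). In lsm8 and tnpo3 mutants 0 of 6 and 0 of 7 such genes were called either way, where 2 in lsm8 mutants (thrb and rorb) and 1 in tnpo3 mutants (thrb) had an unadjusted p below 0.05. Their medians there were -0.28 and -0.14. Over all genes 7.06% and 2.13% were called lower in these mutants.

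These 3 regulators, picked for being called lower in snapc3 mutants, also differed between mutants over exons present in all 3 tables (12 libraries). The snapc3 libraries are the same as in that call, so the choice favours a difference from snapc3 mutants. Of 7443 genes, 8.8% were called higher in lsm8 than in snapc3 mutants and 6.65% in tnpo3 than in snapc3 mutants. The remaining genes of the 6 measured did not pass in either comparison. Levels of otx2 were higher in lsm8 than in snapc3 mutants by a log2 difference of 1.37 (SE 0.259, limma adjusted p = 0.00283) and in tnpo3 than in snapc3 mutants by 1.51 (adjusted p = 0.00171). The differences of six7 were 1.31 (adjusted p = 0.0126) and 1.41 (adjusted p = 0.0104), and those of rorb 0.66 (adjusted p = 0.00269) and 0.78 (adjusted p = 0.000931). Without lsm8 mutant 1 the adjusted p of six7 between lsm8 and snapc3 mutants was 0.0527. Between tnpo3 and lsm8 mutants none of the 3 passed, with otx2 differing by 0.15 (95% interval -0.407 to 0.698). The authors' deposited table for snapc3 mutants listed 7 of the other 16 lower and 0 higher. These were six7 at -2.17, samd7 at -1.70, nrl at -1.62, otx2 at -1.61, rx2 at -1.54, six6b at -1.21 and neurod at -1.17 in the authors' deposited table. Nrl is the factor that directs rod fate in mouse. The average log2 expression of nrl was low, at -1.85 (limma adjusted p = 0.0483). In lsm8 mutants the authors' deposited table listed foxq2 at -2.21 and rx2 at -1.10, and in tnpo3 mutants none of the 16. The average log2 expression of foxq2 was also low, at -1.26.

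Rod transducin was lower in both mutants in which it was measured. A gnat1 exon was read in the snapc3 table, with 328, 330 and 361 reads in controls and 115, 111 and 120 in mutants. In CPM these were 25.4, 22.6 and 24.8 in controls and 7.96, 8.95 and 9.34 in snapc3 mutants. Every mutant library was below every control library, by a wide margin. The log2 change was -1.48 (SE 0.144, 95% interval -1.80 to -1.15, limma adjusted p = 0.00111). The authors' deposited table gave gnat1 -1.38 (SE 0.231, adjusted p = 0.0446) for the same libraries.

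In the tnpo3 table another gnat1 exon was read, with 708, 543 and 758 reads in controls and 140, 265 and 225 in mutants. The CPM were 44.5, 29.8 and 41.9 in controls and 7.95, 15.4 and 13.7 in tnpo3 mutants. The groups did not overlap, though the mutant libraries spread more than those of snapc3. The log2 change was -1.69 (SE 0.266, 95% interval -2.3 to -1.07, limma adjusted p = 0.0183), and 2.13% of 11493 genes were called lower in that table. The authors' deposited table gave gnat1 -1.79 (SE 0.227, adjusted p = 0.0488), or 28.8% of control. Without the control library at position 1 in the deposited cells, the adjusted p of the junction reads was 0.0579, without control 3 it was 0.0533, and without tnpo3 mutant 3 it was 0.061. Levels of the 2 gnat1 exons are not comparable across tables. gnat1 had no row in the lsm8 tables used here, so no value for lsm8 mutants is given.

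**Figure D2:**
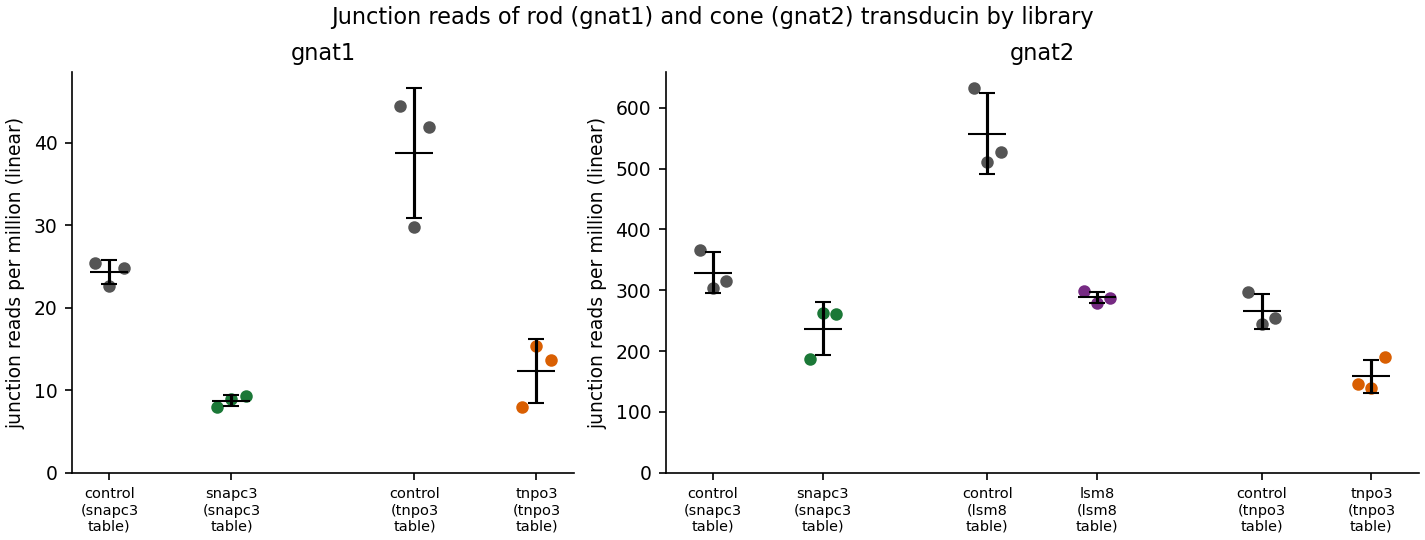
Junction read CPM (y axes, linear, from 0) of gnat1 and gnat2 in each library (points) with group mean and SD (bars, n = 3), by table; levels are comparable only within a table. In each of the 5 comparisons drawn, all mutant libraries lie below all control libraries. These comparisons cover only gnat1 and gnat2 and reuse the same control libraries. The share of all genes that separate in this way was not computed.

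Cone transducin was read in all 3 tables, was lower in the mutants of each, and was called lower in 2 of them. In the lsm8 table, gnat2 had 633.4, 511.2 and 526.7 CPM in controls and 298.1, 279.2 and 287.5 in mutants over 2 exons. The mutant libraries lay close together and far below the controls. The log2 change was -0.94 (SE 0.101, 95% interval -1.17 to -0.72, limma adjusted p = 0.000354), where 7.06% of 10069 genes were called lower. In the tnpo3 table, gnat2 had 297.9, 244 and 253.8 CPM in controls and 146, 139.8 and 190 in mutants. No mutant library reached the lowest control, and the log2 change was -0.75 (SE 0.134, 95% interval -1.05 to -0.45, adjusted p = 0.0219). That call was lost without control 1 (adjusted p = 0.0562), tnpo3 mutant 1 (0.0762) or tnpo3 mutant 2 (0.0869). In the snapc3 table, gnat2 had 366.9, 304.6 and 315.2 CPM in controls and 187.1, 262.4 and 261.6 in mutants. Its first mutant library was lower than the other two, and the groups did not overlap. The log2 change of -0.48 (SE 0.145, 95% interval -0.82 to -0.15) did not pass (limma adjusted p = 0.0978, unadjusted p = 0.0096). It passed with library totals in place of trimmed-mean scaling (adjusted p = 0.0412) and in the fit over 12 libraries (adjusted p = 0.0498). gnat2 was in none of the deposited expression tables, which admit only log2 changes of at least 1 in size.

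A gnat2 exon was shared by all 3 tables, so its level could be compared across the 4 groups. CPM were 603, 494 and 512 in controls, 308, 430 and 427 in snapc3 mutants, 279, 271 and 273 in lsm8 mutants, and 301, 287 and 390 in tnpo3 mutants. Group means were 537 ± 58.3 in controls, 388 ± 69.5 in snapc3, 326 ± 55.7 in tnpo3 and 274 ± 4.56 in lsm8 mutants (SD, n = 3 each). Neighbours in this order among the mutants did not differ beyond their spread. tnpo3 minus snapc3 was -0.25 on the log2 scale (95% interval -0.55 to 0.05, limma adjusted p = 0.263), and tnpo3 minus lsm8 was 0.24 (95% interval -0.06 to 0.53, adjusted p = 0.27). The ends of the order did differ. gnat2 was lower in lsm8 than in snapc3 mutants by -0.48 (SE 0.139, 95% interval -0.78 to -0.19, adjusted p = 0.0263), where 9.98% of 7443 genes were called lower and 8.8% higher. For tnpo3 minus snapc3 these shares were 6.45% and 6.65%, and for tnpo3 minus lsm8 they were 7.89% and 9.15%. With library totals alone this difference was -0.17 (adjusted p = 0.385), while the median of all genes moved by 0.32 and the calls over all genes from 743 lower and 655 higher to 273 and 2380. It was also lost when a single mutant library was left out, with adjusted p of 0.0968 and 0.0986 without snapc3 mutants 2 and 3 and 0.0658, 0.0688 and 0.069 without lsm8 mutants 1, 2 and 3.

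Rod and cone transducin were also compared within each library, a measure chosen late, with the values already known. Per 100 gnat2 reads there were 6.91, 7.42 and 7.87 gnat1 reads in controls and 4.23, 3.4 and 3.55 in snapc3 mutants. In the tnpo3 table there were 14.9, 12.2 and 16.5 in controls and 5.43, 11 and 7.18 in mutants. All mutant libraries had a lower ratio than all controls in both tables, although tnpo3 mutant 2 came near the lowest control. The log2 ratio was lower by 0.994 in snapc3 mutants (-4.75 ± 0.168 against -3.76 ± 0.0933, SD, n = 3; exact two-sided permutation p = 0.1). In tnpo3 mutants it was -3.73 ± 0.512 against -2.79 ± 0.222 (SD, n = 3), and the exact permutation p was again 0.1, which is the lowest value this design allows. This ratio does not depend on scaling between libraries.

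**Figure D3:**
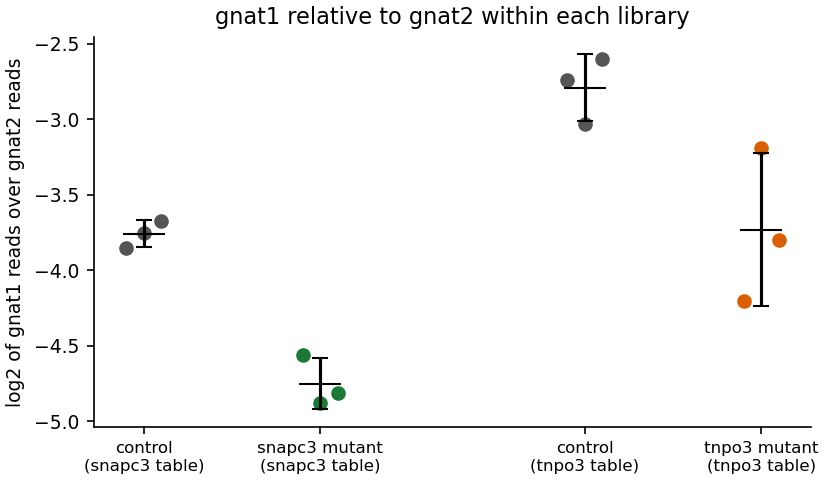
Log2 ratio of gnat1 to gnat2 junction reads (y axis) in each library (points), with group mean and SD (bars, n = 3), in the snapc3 and tnpo3 tables. Mutant libraries lie below controls in both, with means of -4.75 against -3.76 and -3.73 against -2.79.

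The genes whose levels followed gnat2 most closely over the 12 libraries were ranked by Pearson's r among 7201 genes with a mean of at least 20 reads. The first 6 were prom1a (r = 0.927), pdcb (0.919), mtmr7b (0.919), pde6c (0.9), arl3l1 (0.897) and rbp4l (0.894). prom1a encodes a membrane protein of outer segments, and pde6c the catalytic subunit of cone phosphodiesterase. Among the first 100 genes, 6 belonged to the photoreceptor lists, visual cycle included, whereas 28 of all 7201 did (0.389%). These lists were chosen with earlier results of these data known, so this contrast is not an independent test. The libraries share the group structure, so these r describe a common pattern over 4 groups and carry no p. Mean log2 CPM of pde6c were 8.7 in controls, 8.41 in snapc3, 8.22 in lsm8 and 8.16 in tnpo3 mutants, and those of prom1a 6.38, 6.14, 5.92 and 6.07.

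**Figure D4:**
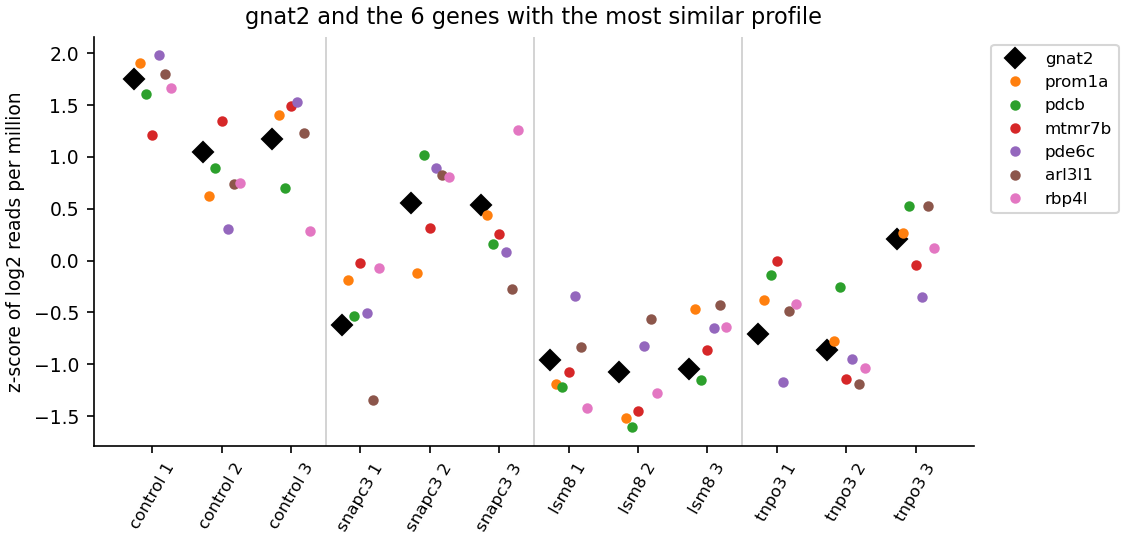
Z-score of log2 CPM (y axis) for gnat2 (diamonds) and the 6 genes with the highest Pearson's r to it (circles, r 0.894 to 0.927) in each of 12 libraries (x axis; numbers are positions in the deposited cells and not an order). Controls are highest for gnat2, and lsm8 mutants are lowest.

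The shut-off genes were measured only in the deposited expression tables. For rcvrna, a recoverin gene, the authors' deposited table gave a log2 fold change of -1.41 in lsm8 mutants (SE 0.0889, 95% interval -1.63 to -1.19, limma adjusted p = 0.00303), or 37.6% of control. It ranked 7 of 424 lower genes by p in that authors' deposited table and 229 by fold. In snapc3 mutants the authors' deposited table gave rcvrna -1.24 (SE 0.181, 95% interval -1.69 to -0.78, adjusted p = 0.0337), or 42.5% of control. The implied log2 levels were 5.4 and 3.99 in the lsm8 comparison and 5.31 and 4.08 in the snapc3 comparison. The intervals overlap, and the difference between the mutants was not tested. For arr3a, a cone arrestin gene, the authors' deposited table for lsm8 mutants gave -1.19 (SE 0.232, 95% interval -1.77 to -0.62, adjusted p = 0.0441), or 43.7% of control. Its implied log2 control level of 8.59 was the highest of the listed members.

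In all, 4 distinct exons of gnat1 and gnat2 made 6 rows in the skipped-exon tables, and no member had a row in the retained-intron tables. None of the 6 was called under a limma adjusted p below 0.05 with a change of at least 10 percentage points, where 0.69%, 1.16% and 2.18% of tested exons were called in snapc3, lsm8 and tnpo3 mutants. These shares depend on the test, since the 154, 260 and 591 exons called became 0, 0 and 2 with a quasi-binomial model and 316, 474 and 838 with the deposited FDR, and 0 of the 6 rows were called under either. Inclusion is the length-normalised share of reads that contain the exon. Differences in mean inclusion in the 6 rows ran from -0.347 to 0.118 percentage points, so the minimum of 10 points alone barred a call. The gnat2 exon of 142 bp at chr8:26085530-26085671 (Zv9, minus strand) had 0, 3 and 3 skipping reads in controls, with inclusion of 99.9% ± 0.102 (SD, n = 3). There were 0, 0 and 0 skipping reads in snapc3 mutants, where 0 reads allow skipping of up to 0.294%, 0.244% and 0.236%. There were 2, 2 and 2 in lsm8 mutants (99.7% ± 0.0399, adjusted p = 0.265) and 2, 3 and 1 in tnpo3 mutants (99.8% ± 0.123, adjusted p = 0.573). Skipping of this exon was thus seen in a few reads of some control libraries as well.

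The other 3 exons had a row for 1 mutant each, where a single mutant library had a skipping read and controls had 0. The same controls gave no row for these exons elsewhere, so the rows may exist only because of that read. The mutant-only position is therefore not taken as a result. The gnat2 exon of 154 bp at chr8:26080891-26081044 had 1 skipping read in the second lsm8 mutant and 0 in controls (adjusted p = 0.212). The gnat1 exon of 43 bp at chr6:42852278-42852320 (plus strand) had 1 in the first snapc3 mutant, giving inclusion of 99.0% in that library and 100% in the others (adjusted p = 0.193). The gnat1 exon of 158 bp at chr6:42854521-42854678 had 1 in the second tnpo3 mutant, with inclusion of 99.2% there (adjusted p = 0.0902). The deposited FDR was 1 for all 6. Among the 6, 4 had an unadjusted p below 0.05, from groups with 0 to 6 skipping reads. A log ratio with 0 skipping reads moves with the number of inclusion reads through its pseudocount, and the mutants had fewer inclusion reads throughout. In tnpo3 mutants 0 skipping reads of the 158 bp exon allow up to 4.11% and 2.6%, against at most 1.09% in controls, so small changes of gnat1 splicing were not detectable at this depth.

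The rest of the pathway was read from 114 further genes of the photoreceptor lists, visual cycle included, of which 62 had a row. Many visual cycle genes act in pigment epithelium or glia, and rpe65a is also counted as a pigment cell marker below. Like the members, the 114 genes were chosen with earlier results of these data known. For snapc3, 39 had enough junction reads, and 9 were called lower and 0 higher, with a median log2 change of -0.46. For lsm8, 15 of 44 were called lower and 0 higher, with a median of -0.40. For tnpo3, 8 of 47 were called lower and 0 higher, with a median of -0.42. Medians over all genes were 0.00, 0.01 and 0.01, and the shares of all genes called lower stand above. All genes called higher made up 2.4%, 4.5% and 1.05%. Called lower and higher were 326 and 247 genes for snapc3 and 711 and 453 for lsm8, and with library totals alone 482 and 138 and 534 and 701, while the median of all genes moved to -0.115 and 0.111. Of these 114, the authors' deposited tables listed 15, 11 and 1 lower and 0 higher in snapc3, lsm8 and tnpo3 mutants. The counts of called genes fell when some single libraries were left out, and in those fits the counts over all genes fell too. Without the control at position 2 or 3 the snapc3 count was 4 or 3, and without snapc3 mutant 1 or 3 it was 3 or 2. Over all genes the 326 called lower became 166, 216, 170 and 191 in these fits, in that order. Without lsm8 mutant 2 the lsm8 count was 9, and over all genes 711 became 471. The tnpo3 count was 5 without control 1 or tnpo3 mutant 3, 3 without tnpo3 mutant 1 and 2 without tnpo3 mutant 2. Over all genes 245 became 123, 86, 147 and 96 in these fits, in that order.

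Next to transducin in the cascade stand its beta and gamma subunits and the phosphodiesterase. The rod phosphodiesterase gene pde6a was lower in snapc3 mutants by a log2 change of -1.15 (SE 0.227, limma adjusted p = 0.0242) and in lsm8 mutants by -0.89 (SE 0.169, adjusted p = 0.00833). In tnpo3 mutants pde6a had 6.12, 5.07 and 7.99 CPM in controls and 2.12, 2.58 and 3.73 in mutants, and its log2 change of -1.20 did not pass (adjusted p = 0.0587). The cone gene pde6c was lower in lsm8 mutants by -0.50 (adjusted p = 0.0129) and in tnpo3 mutants by -0.51 (adjusted p = 0.0444), and its value in snapc3 mutants was -0.29 (adjusted p = 0.245). The gene gnb3b, of the transducin beta family, was lower by -0.77 in lsm8 mutants (adjusted p = 0.000558) and by -1.08 in tnpo3 mutants (adjusted p = 0.00429), and pde6g by -1.48 in snapc3 mutants (adjusted p = 0.0302). For pde6g the values in lsm8 and tnpo3 mutants were -0.03 and -1.54, and neither passed (adjusted p = 0.952 and 0.0728). Several of these calls were lost when a single library was left out. In snapc3 mutants pde6a was lost without control 3 (adjusted p = 0.0738), snapc3 mutant 1 (0.0864) or snapc3 mutant 3 (0.0751), and pde6g without control 1 (0.0656), snapc3 mutant 1 (0.112) or snapc3 mutant 3 (0.117). pde6c was lost in lsm8 mutants without lsm8 mutant 2 (0.0526) or 3 (0.0571). In tnpo3 mutants it was lost without control 1 (0.113), control 3 (0.0906), or tnpo3 mutant 1 (0.127), 2 (0.144) or 3 (0.0881), with library totals (0.0635) and with 1 event per gene (0.0592). The calls of gnb3b in both mutants and of pde6a in lsm8 mutants held in every fit that left out a library. The authors' deposited table for snapc3 mutants added gngt2a at -1.94 and pde6b at -1.57. For lsm8 mutants the authors' deposited table added gngt2a at -1.24, and for tnpo3 mutants the authors' deposited table listed gnb3b at -1.07.

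Opsins, which precede transducin, were hardly measured, with 2 of 11 matched. The red cone opsin gene opn1lw2 was lower in lsm8 mutants by a log2 change of -0.94 (SE 0.181, limma adjusted p = 0.0141), and the authors' deposited table gave -1.05. In snapc3 mutants the authors' deposited table listed rhol at -1.85. The call was lost without lsm8 mutant 1 (adjusted p = 0.0617), 2 (0.0583) or 3 (0.0511). Reads of opn1lw2 may be split with its tandem copy, so its values are uncertain.

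Among genes of shut-off and recovery other than members, 1 of 9 was called lower in snapc3, 5 of 11 in lsm8 and 4 of 11 in tnpo3 mutants. Over all genes these shares were 3.17%, 7.06% and 2.13%. The rod arrestin gene sagb was lower by -1.53 in lsm8 mutants (limma adjusted p = 0.00549) and by -1.11 in tnpo3 mutants (adjusted p = 0.0246). The kinase gene grk1b was lower by -1.08 in snapc3 mutants (adjusted p = 0.00568) and by -0.85 in tnpo3 mutants (adjusted p = 0.0181). The guanylate cyclase activator gene guca1d was lower by -1.42 in lsm8 (adjusted p = 0.0141) and -1.22 in tnpo3 mutants (adjusted p = 0.0365). The remaining calls were rgs9a, rgs9b and gnb5b in lsm8 mutants and saga in tnpo3 mutants, between -0.90 and -0.55. In lsm8 mutants rgs9b was lost without lsm8 mutant 3 (adjusted p = 0.0588), with library totals (0.059) and with 1 event per gene (0.0721), and the other 4 calls held in every fit that left out a library. In tnpo3 mutants sagb was lost without tnpo3 mutant 1 (0.0621) or 2 (0.108) and grk1b without tnpo3 mutant 1 (0.0671) or 2 (0.067). The calls of guca1d and saga there were lost in 5 of 6 fits that left out a library, which were all but control 3 for guca1d (adjusted p from 0.0604 to 0.12) and all but control 2 for saga (0.0595 to 0.148), and saga also with library totals (0.0708). The authors' deposited table for snapc3 mutants listed sagb at -1.69 and grk1b at -1.06. For lsm8 mutants the authors' deposited table listed sagb at -1.50, guca1e at -1.23, the second recoverin gene rcv1 at -1.13 and grk1b at -1.01. The average log2 expression of guca1e was low, at -0.157. Its junction reads in lsm8 mutants were lower by -1.45 and did not pass (limma adjusted p = 0.0899).

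Of outer segment and synapse genes, 3 of 10, 4 of 10 and 2 of 11 were called lower in snapc3, lsm8 and tnpo3 mutants. Over all genes the shares called lower were 3.17%, 7.06% and 2.13%, which apply to the visual cycle counts below as well. The matrix proteoglycan gene impg1b was lower in snapc3 (-1.20, limma adjusted p = 0.0362) and tnpo3 mutants (-1.03, adjusted p = 0.01). The related gene impg1a was lower by -0.61 in snapc3 mutants (adjusted p = 0.0466), and prom1b by -0.69 in tnpo3 mutants (adjusted p = 0.0181). In snapc3 mutants the call of impg1a was lost in all 6 fits that left out a library (adjusted p from 0.0602 to 0.149), and also with 1 event per gene (0.0534), inclusion reads divided by 2 (0.0506), shared events (0.22) and limma voom (0.05). The call of impg1b there held only without snapc3 mutant 2, and the other 5 such fits gave adjusted p from 0.075 to 0.125. In tnpo3 mutants impg1b was lost over shared events (0.0697), and prom1b without tnpo3 mutant 2 (0.0606) and with 1 event per gene (0.0925). In lsm8 mutants the calls were unc119b, tulp1a, prph2b and prom1a, from -0.83 to -0.45. Of these prph2b was lost without lsm8 mutant 2 (0.0575) and tulp1a without lsm8 mutant 1 (0.054) or 2 (0.0638). prom1a was lost without control 1 (0.0802), control 3 (0.0686), lsm8 mutant 1 (0.0973) or lsm8 mutant 2 (0.106), with library totals (0.114) and with 1 event per gene (0.0882). The authors' deposited table for snapc3 mutants listed rp1 at -1.14 and tulp1b at -1.02. Junction reads of these genes in snapc3 mutants did not pass, at -0.41 (limma adjusted p = 0.552) and -0.74 (adjusted p = 0.119). Visual cycle genes, many of which act in pigment epithelium or glia, gave 0 of 8, 2 of 8 and 0 of 10 calls. The 2 were rbp4l (-1.36, adjusted p = 0.0185) and rdh8b (-1.0, adjusted p = 0.00995) in lsm8 mutants, and rbp4l was lost without control 2 (0.0605), lsm8 mutant 1 (0.0855) or lsm8 mutant 2 (0.0734). The authors' deposited table for lsm8 mutants listed rbp4l at -1.32, rdh8b at -1.18 and rdh12l at -2.43. The average log2 expression of rdh12l was 0.7, against 6.44 for rbp4l and 2.58 for rdh8b.

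**Figure D5:**
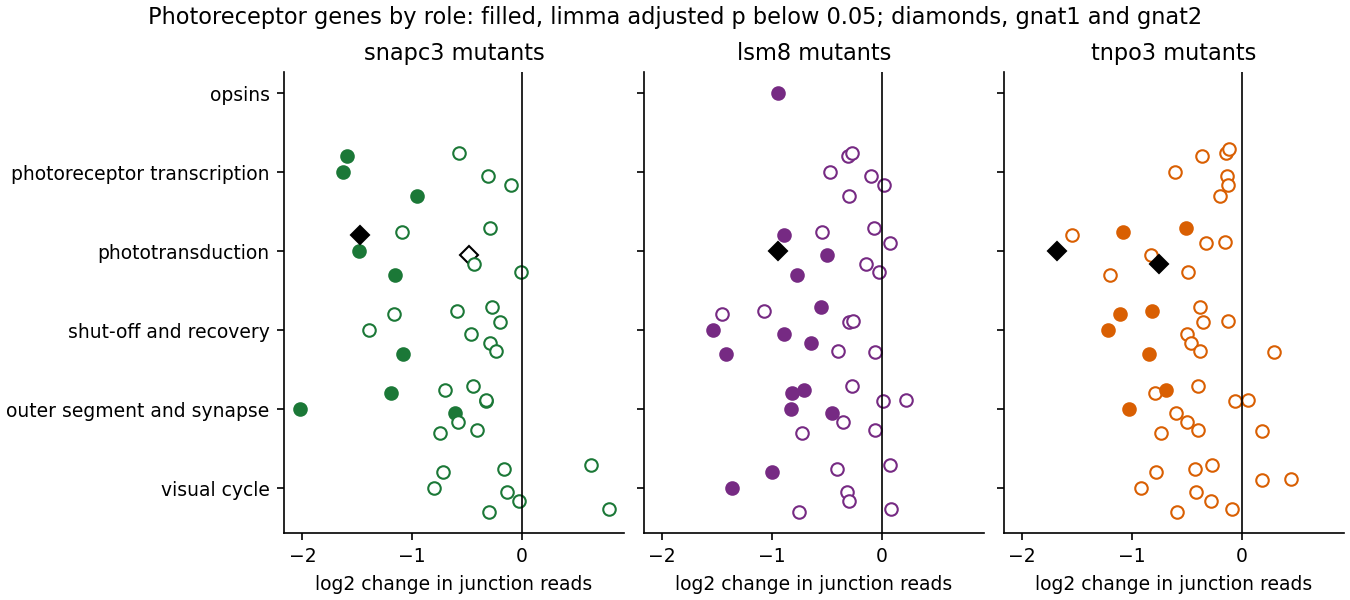
Log2 change in junction reads (x axis, mutant minus control) of photoreceptor genes grouped by role (y axis; vertical offsets within a row only separate points) in 3 mutants. Filled points have a limma adjusted p below 0.05, diamonds are gnat1 and gnat2, and no filled point lies above 0.

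Markers of other cells of the eye and pineal were read in the same libraries. Of 7 pigment cell markers 3, 2 and 4 were measured and 0 were called. Their summed CPM spanned 32.6 to 45.2 in controls and 48.7 to 56.6 in snapc3 mutants. In the lsm8 table controls spanned 16.9 to 24.5 and mutants 15.5 to 18, and in the tnpo3 table controls spanned 105 to 151 and mutants 99.3 to 129. Of 12 lens markers 3, 4 and 5 were measured and 0 were called, and their sums overlapped between groups. Controls spanned 175 to 443 and snapc3 mutants 118 to 427, controls 210 to 526 and lsm8 mutants 183 to 320, controls 613 to 1320 and tnpo3 mutants 675 to 1230. Over all genes 3.17%, 7.06% and 2.13% were called lower, so 0 calls among so few pigment and lens markers do not show unchanged cells. The lens markers also varied widely, and the 95% interval of cryba2a in snapc3 mutants ran from -1.80 to 1.87. Of 16 markers of other retinal neurons and glia 5, 6 and 8 were measured. Controls spanned 118 to 138 and snapc3 mutants 105 to 117, controls 103 to 125 and lsm8 mutants 94.8 to 121, controls 319 to 335 and tnpo3 mutants 350 to 383. Among them barhl2 was called lower in snapc3 mutants by a log2 change of -0.79 (limma adjusted p = 0.00445). In lsm8 mutants barhl2 was called lower by -0.56 (adjusted p = 0.0215) and cabp5b by -0.92 (adjusted p = 0.0227). In lsm8 mutants barhl2 was lost without control 1 (adjusted p = 0.0568), control 2 (0.0563), lsm8 mutant 1 (0.0647) or 2 (0.0786) and with library totals (0.0639), and cabp5b without control 1 (0.0688), lsm8 mutant 2 (0.0787) or 3 (0.0888). Of the measured markers in this list, 4 of 5, 4 of 6 and 4 of 8 had changes below 0 in snapc3, lsm8 and tnpo3 mutants. In tnpo3 mutants prox1a, elavl3 and vsx1 were higher by log2 changes of 0.40, 0.27 and 0.25. None of these passed (limma adjusted p = 0.0969, 0.188 and 0.329). In lsm8 mutants slc1a2b was higher by 0.40 and did not pass (adjusted p = 0.258). The authors' deposited table for snapc3 mutants listed vsx1 at -1.06, atoh7 at -3.53 and pou4f2 at -1.175. The authors' deposited tables for lsm8 and tnpo3 mutants listed atoh7 at -1.81 and -1.35, at average log2 expression of 0.128 and 0.328. In snapc3 mutants the fall of atoh7 was larger in size than that of any listed member, at a low average log2 expression of -0.828. The summed CPM of the photoreceptor genes other than members, visual cycle included, was below every control in every mutant library. A few abundant genes contribute much to this sum. It was 1490 to 2090 in snapc3 mutants (controls 2190 to 2630) and 1910 to 2090 in lsm8 mutants (controls 3010 to 4010). In tnpo3 mutants it was 1810 to 2070 (controls 2570 to 3130). Of 5 pineal markers only asmt was measured, at 3.4 to 5.45 in controls and 3.2 to 4.22 in snapc3 mutants. No measured marker was at 0 in all libraries. The part of these cells in the values of the members was not tested.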

How the data were processed

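Total RNA of whole embryos was taken up in TRI Reagent and DNase-treated, and stranded libraries followed ribosomal RNA depletion, per the labels' protocols. TopHat2 2.0.13, Bowtie2 2.2.3, featureCounts 1.4.5-p1, limma 3.26.3 and build Zv9 were used, per the submitters' processing notes. The authors deposited, per listed gene, the log2 fold change, p-value and adjusted p-value, the average log2 expression, limma's statistic, and a log-odds score (not used here). The standard error is the fold change over the statistic, and intervals use degrees of freedom solved from the deposited p-value (5.53, 5.8 and 5.41). Implied levels place both groups of 3 evenly around the deposited average log2 expression. The number of genes tested was the one that made the most ratios of deposited p-value to adjusted p-value whole ranks (38.8%, 42.9% and 24.3% within 1e-06).

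The authors also deposited junction read counts per exon or intron with 3 libraries joined in a cell, and a p-value and FDR. The order of libraries is not matched to replicate numbers. The first group's reads were identical in the tables for all 13347 events shared by the 3 skipped-exon tables, which marks it as the controls. Inclusion and skipping reads were summed per gene over the events of a table, so that a library's total differs between tables. A gene with several events can count a junction more than once.

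The planned negative binomial test of reads was not run, because the joined cells could not be declared as plain counts. In its place limma 3.58.1 (R 4.3.3), with trend and robust settings, was run on log2 CPM with a pseudocount of 0.5 and trimmed-mean scaling (30% of log ratios and 5% of log levels trimmed). All genes averaging 10 or more reads in a library entered, with Benjamini-Hochberg adjustment over all of them. Each mutant was compared with the controls in its own table, and mutants with each other over all 12 libraries and the shared events (7663 genes). Exons were tested with limma on log2 inclusion over skipping reads, each divided by its form length (pseudocount 0.5, at least 1 read of each form). Code was tested on simulated data. Other tests used SciPy 1.17.1. Limits from 0 reads are the length-normalised share that 3 skipping reads would make beside the library's inclusion reads. They cover counting error only.

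The members and lists were chosen with earlier results of these data known. Lists were matched by symbol or RefSeq synonym, with 2 symbols of 1 gene counted once. A gene that enters the counts of its list is not reported here. Named beside the members are listed genes in the deposited tables and, per list and mutant, up to 3 measured genes with the smallest adjusted p, of which those called are printed, with other calls in brief. Alternatives were library totals alone, no read minimum, 1 event per gene, inclusion reads divided by 2, events shared by all tables, other settings for exons, an adjusted p of 0.01 for deposited lists, and each library left out. Median-of-ratios scaling, limma voom and the gnat1 to gnat2 ratio were added after seeing the data.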

Additional observations from a re-analysis of the deposited data

Results flagged for a closer look

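Genes of the photoreceptor lists, visual cycle included, whose junction reads differed between 2 mutants at a limma adjusted p below 0.05 over 12 libraries are given as log2 differences. Of 31 such genes other than members, 3 were lower and 5 higher for lsm8 minus snapc3, counting a gene not reported here. For tnpo3 minus snapc3 these counts were 2 and 6, and for tnpo3 minus lsm8 they were 1 and 4. Over all 7443 genes the shares lower and higher were 9.98% and 8.8%, 6.45% and 6.65%, and 7.89% and 9.15%. Differences between mutants were thus common among all genes. Among the members, gnat2 differed between lsm8 and snapc3 mutants by -0.485. Of the transcription factors, lsm8 minus snapc3 was 1.37 for otx2, 1.31 for six7 and 0.658 for rorb, and tnpo3 minus snapc3 was 1.51 for otx2, 1.41 for six7 and 0.784 for rorb. Of cascade and shut-off genes, lsm8 minus snapc3 was 1.47 for pde6g and -1.12 for guca1d, tnpo3 minus snapc3 was -0.623 for gnb3b, and tnpo3 minus lsm8 was -1.51 for pde6g and 1.75 for guca1e. The value of guca1e rests on few reads, with 12, 4 and 11 in lsm8 mutants. Of outer segment genes, tnpo3 minus snapc3 was 0.697 for tulp1a and 0.942 for tulp1b, and tnpo3 minus lsm8 was 0.804 for tulp1a and 0.915 for tulp1b. Of visual cycle genes, lsm8 minus snapc3 was -0.935 for rpe65a and -1.19 for rbp4l, tnpo3 minus snapc3 was -1.03 for rpe65a and 1.08 for rdh8b, and tnpo3 minus lsm8 was 1.27 for rdh8b. Of these, gnat2, guca1d, rbp4l, gnb3b, tulp1b, tulp1a between tnpo3 and snapc3 mutants, and six7 and rpe65a between lsm8 and snapc3 mutants no longer passed when some single library was left out. rpe65a is also among the pigment cell markers. Among markers of other cells, tnpo3 minus snapc3 was 0.921 for elavl3, 0.646 for barhl2 and -0.765 for slc45a2. For tnpo3 minus lsm8, elavl3 differed by 0.746 and barhl2 by 0.413, and for lsm8 minus snapc3 cabp5b differed by -0.841. Of these markers, slc45a2, cabp5b and barhl2 between tnpo3 and lsm8 mutants no longer passed when some single library was left out.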

How the results depend on the processing

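No paired analysis was possible because the order of libraries in the deposited cells is not matched to replicate numbers. Called members rose from 1 to 2 of 2 for snapc3 with library totals alone, fell from 2 to 1 for tnpo3 over events in all 3 tables, where only gnat2 is measured, and fell from 1 to 0 between lsm8 and snapc3 mutants with library totals. At an adjusted p below 0.01 the authors' deposited tables held 0, 1 and 0 members in place of 4, 2 and 1. In the authors' deposited tables all genes listed lower fell from 324, 424 and 77 to 57, 97 and 0. No gene listed lower for tnpo3 passed this cut, so its member count could only be 0. With each library left out in turn, called members ran from 0 to 2 for tnpo3 and from 0 to 1 between lsm8 and snapc3 mutants, and stayed at 1 for snapc3 and for lsm8 against controls. Other photoreceptor genes called lower ran from 2 to 12 for snapc3, 9 to 15 for lsm8 and 2 to 7 for tnpo3. All genes called lower ran from 166 to 332 for snapc3, 461 to 766 for lsm8 and 86 to 183 for tnpo3. Between lsm8 and snapc3 mutants they ran from 458 to 785. The log2 ratio of gnat1 to gnat2 changed by -1.09 to -0.93 and by -1.21 to -0.70. Of the results for single genes under the alternatives run, 860 kept their side of the threshold, 129 no longer passed, 2 newly passed and 0 changed direction. These counts do not include the lost calls of prom1a and rgs9b in lsm8 mutants and of saga in tnpo3 mutants, which are given above. For tnpo3 minus snapc3 and tnpo3 minus lsm8, library totals changed the calls over all genes from 480 lower and 495 higher to 280 and 982, and from 587 and 681 to 1106 and 363. The causes of these changes were not tested. The planned edgeR and DESeq2 fits, and any fit with a replicate block, were not run. Few gnat1 reads and the 3 libraries per group limit what can be detected.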
